A study of Homo sapiens with 6 samples.

Results

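The SLC25 genes encode the mitochondrial carriers. All entries of the deposited count table whose symbol starts with SLC25A were taken, which gave 51 of its 23710 genes. Of these, 48 encode proteins and 3 are an antisense RNA or pseudogenes (SLC25A5-AS1, SLC25A3P1 and SLC25A51P1). The rule reads symbols and no measured value. After the filter on low counts, 41 of the 51 were tested, 40 of them protein coding, among 13591 genes tested in all.

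Mitochondrial carriers are small proteins of the inner mitochondrial membrane that exchange or import nucleotides, phosphate, organic acids, amino acids and cofactors, which the membrane does not otherwise let through. Each is built from repeats of one sequence unit, is made in the cytosol and is inserted by a dedicated import route, and a few members sit in the outer membrane or in peroxisomes. In myeloid cells the carriers supply ATP to the cytosol, move citrate out for lipid synthesis, and bring in iron and glycine for haem.

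RNA came from THP-1, an established human monocytic leukaemia line, kept in culture medium with fetal bovine serum. The cells received 10 uM mebendazole, a benzimidazole drug that binds beta tubulin, or the vehicle DMSO, each for 6 hours. Each group had 3 libraries, and the labels join them into 3 pairs. The labels do not say whether pairs were separate cultures, so p-values measure only how far these samples spread, and that spread may be technical.

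Total counts ran from 13420558 to 15727667 per library, and libraries of 1 group correlated at a Spearman rho of 0.997 or more across genes. All 8 monocyte markers were detected, with a summed level of 1755 to 1854 in DMSO and 1732 to 1778 with mebendazole, in CPM (reads divided by the TMM-scaled library size). Those markers did not stay at one level, since 6 of the 8 were called lower with mebendazole and 2 higher. The 8 markers of other cells summed to 1.41 to 2.17 CPM in DMSO and 2.28 to 3.15 with mebendazole, and the groups overlapped with library totals. MS4A1, HBB and PPBP had no read in DMSO, and CD3D and CD3E none with mebendazole. Their part in the results below was not tested. DMSO replicate 1 stood apart in 2 small RNAs, with 105 reads of RMRP and 126 of RPPH1 against 1 to 5 elsewhere, and without its pair 12 members were called higher and 22 lower.

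Because the members include near copies, the sequences that bear on how reads were assigned are given first. SLC25A5 and SLC25A6 on chromosome X and SLC25A4 on chromosome 4 encode ADP/ATP carriers, which swap mitochondrial ATP for cytosolic ADP. The coding sequences of SLC25A5 and SLC25A6 are 78.7% identical, and their longest shared run is the 29 bases from coding base 85 to 113 (GENCODE, GRCh38). It is shown because no longer stretch is common to both, and capitals mark the 2 positions at which SLC25A4 differs from SLC25A5.
SLC25A4: atcgagAgggtcaaActgctgctgcaggt
SLC25A5: atcgagcgggtcaagctgctgctgcaggt
SLC25A6: atcgagcgggtcaagctgctgctgcaggt
Their longest transcripts shared 0 stretches of 50 bases, so no exact read of that length fits more than 1 of the 3. Of such stretches, 4.57% in SLC25A5, 0.944% in SLC25A6 and 0% in SLC25A4 also occur in a transcript of another gene. Transcripts under the same gene name were left out of that search. The share for SLC25A6 therefore does not cover any copy of the gene on chromosome Y, and how reads were assigned between such copies was not tested.

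SLC25A51 and SLC25A52, which encode importers of NAD+, are the closest coding copies among the pairs compared, with 97.6% identity. They share the run below, 169 coding bases at chr9:37887667-37887835 in SLC25A51 and at chr18:31759778-31759946 in SLC25A52, both on the minus strand of GRCh38.
SLC25A51 and SLC25A52: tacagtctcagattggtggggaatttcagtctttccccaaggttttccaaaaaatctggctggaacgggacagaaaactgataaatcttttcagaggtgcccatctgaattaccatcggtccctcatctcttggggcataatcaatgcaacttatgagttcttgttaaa
A read inside this run cannot be given to either gene by its sequence, and 28.5% of all 50-base stretches of SLC25A51 also occur in a transcript of another gene.

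More members were called lower than higher with mebendazole, while the share called at all was near that of all genes. In all, 36 of the 41 tested members were called at an edgeR adjusted p under 0.05, or 87.8%, against 82.3% of all genes tested. Members called lower numbered 24, or 58.5% against 41.7% of all genes, and members called higher numbered 12, or 29.3% against 40.6%. The median log2 fold change of the members was -0.35, beside -0.03 over all genes tested. These counts include the antisense RNA SLC25A5-AS1. Of the 40 protein-coding members tested, 12 were called higher and 23 lower, with a median of -0.31. Each level is a share of the RNA in its library, and fewer cells of a type cannot be told apart from less RNA per cell.

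The split depended on how libraries were scaled. With library totals in place of TMM, the median of all genes moved by -0.24, and 5 members were called higher and 28 lower, beside 30.8% and 53.9% of all genes. 

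At 2-fold or more, 12 members were called, or 29.3% against 30.4% of all genes. Of these, 9 fell, or 22% against 14.8% of all genes, and 3 rose, or 7.32% against 15.5%. The 9 that fell were SLC25A10, SLC25A22, SLC25A45, SLC25A16, SLC25A35, SLC25A4, SLC25A23, SLC25A27 and SLC25A12, and the 3 that rose were SLC25A51, SLC25A25 and SLC25A34. The CPM of the groups did not overlap for 36 of the 41 tested members, or 87.8%, against 82.4% of all genes. These 36 are not the same set as the 36 called, because SLC25A42 was called with overlapping groups and SLC25A14 was separated without being called. Among called members 35 of 36 moved the same way in all 3 pairs. The calls come from the same 3 pairs, so this count is no separate support. The share among all called genes was not counted.

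**Figure D1:**
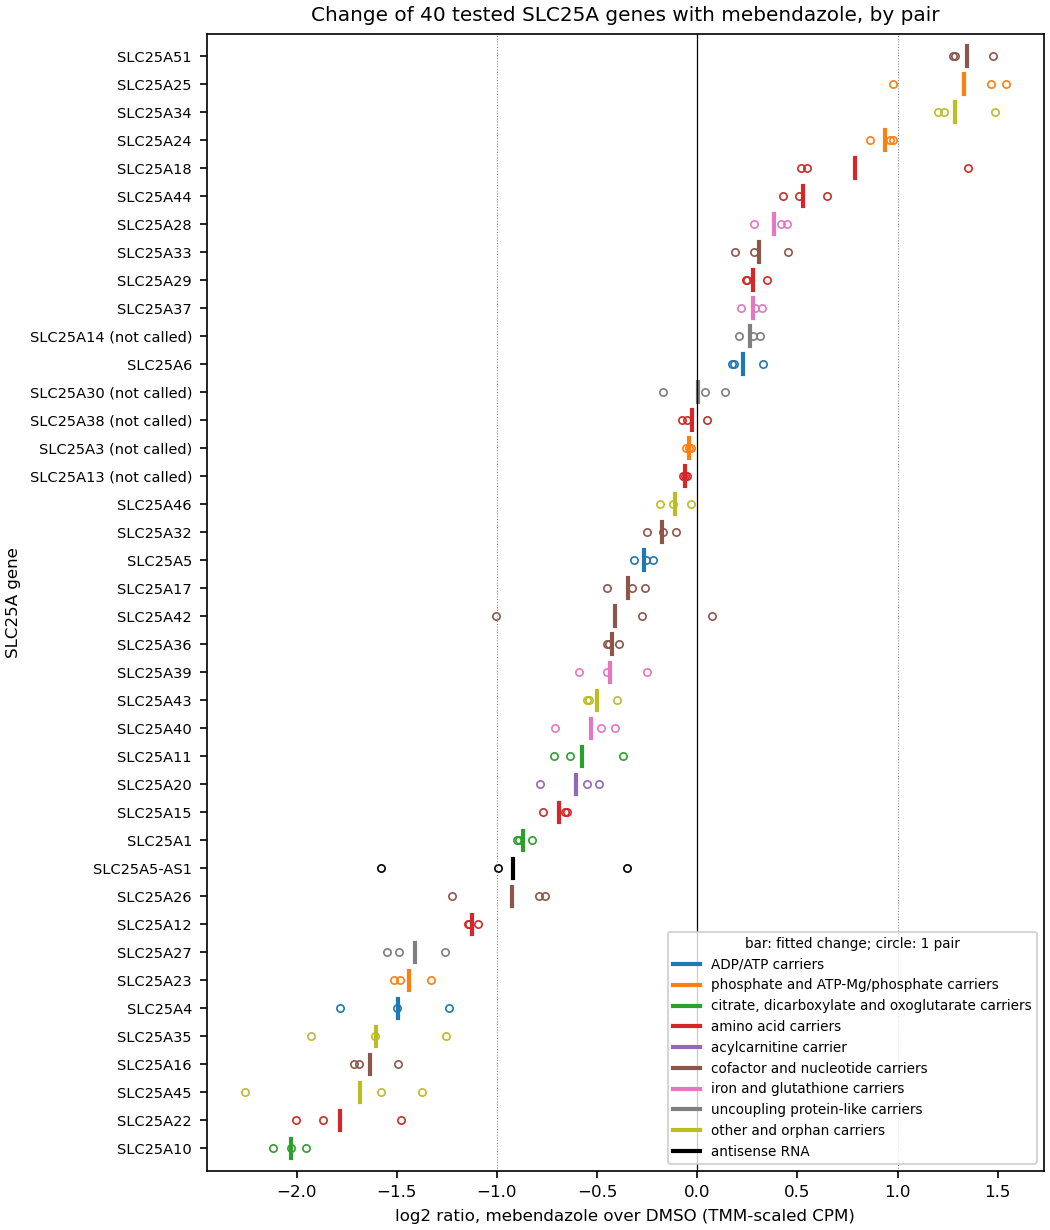
Log2 ratio of mebendazole over DMSO (horizontal axis, TMM-scaled CPM) for 40 of the 41 tested SLC25A genes, ordered by the fitted change. Circles are the 3 pairs, bars the fitted change, colours the role, and dotted lines a 2-fold change. Bars lie left of 0 for most genes, from -2.03 for SLC25A10 to 1.34 for SLC25A51, and the circles of SLC25A42 fall on both sides of 0.

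The 2-fold changes sat among the members of lower level. All 12 were among the 30 members with a mean below 50 CPM, or 40%, beside 34.5% of all genes below that level. The 11 members above it ranged from -0.87 for SLC25A1 to 0.93 for SLC25A24 on the log2 scale, and 22.1% of all genes at such levels were called at 2-fold or more. The level of 50 CPM was chosen after the values were seen.

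Per kilobase of exon, the ADP/ATP carrier genes SLC25A6 and SLC25A5 led the family in DMSO, with 304 ± 15.6 and 231 ± 4.01 CPM per kb (SD, n = 3). SLC25A39, SLC25A3 and SLC25A1 followed with 66.9 ± 6.29, 59.1 ± 1.59 and 55.4 ± 0.977 CPM per kb. The order of the last 3 was partly within their spread, since SLC25A39 and SLC25A3 differed by little more than the SD of SLC25A39. The rank of SLC25A3 also rested on the length used, because with its longest coding transcript in place of all exons its level was 242 CPM per kb, the second of the family. SLC25A36 moved likewise, from 12.1 to 70.8 CPM per kb.

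**Figure D2:**
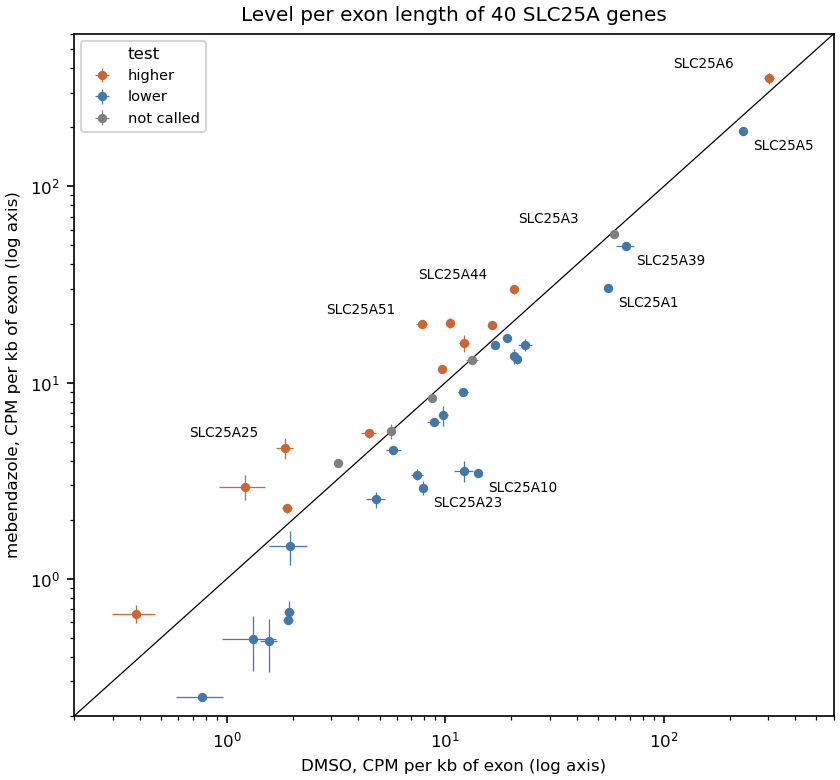
Mean level per kilobase of exon in DMSO (horizontal, log axis) and with mebendazole (vertical, log axis) for the 40 tested protein-coding SLC25A genes, with SD of 3 libraries as bars and colours for the test. SLC25A6 and SLC25A5 stand at the top right at 304 and 231 CPM per kb in DMSO, while genes such as SLC25A10 and SLC25A23 lie below the line of equal level.

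The ADP/ATP carrier genes diverged. SLC25A6 had 616, 602 and 664 CPM in DMSO replicates 1 to 3 and 775, 684 and 748 with mebendazole, a log2 fold change of 0.23 ± 0.03 (SE, edgeR adjusted p = 1.6e-09). SLC25A5 had 298, 288 and 295 CPM in DMSO and 256, 231 and 247 with mebendazole, and fell by 0.26 ± 0.03 on the log2 scale (edgeR adjusted p = 2.4e-10). In both genes the groups did not overlap, but the rise of SLC25A6 became -0.02 with library totals. The SE here is the absolute change over the root of the F statistic, and with 2 residual degrees of freedom beside a prior of 61.0 it rests mostly on spread pooled over genes.

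SLC25A4, the carrier form typical of heart and muscle, was the low member and changed most. Its DMSO libraries held 8.02, 8.68 and 8.93 CPM and its mebendazole libraries 3.4, 3.07 and 2.60, a log2 fold change of -1.49 ± 0.15 (edgeR adjusted p = 3.0e-14). SLC25A31, the testis form, had no read in any library, which allows up to 0.0346 CPM for counting error. The 4 genes summed to 930 ± 35.1 CPM in DMSO and 983 ± 59.2 with mebendazole, and the groups overlapped. With library totals the same sum was 1011 ± 31.5 CPM in DMSO and 903 ± 46.4 with mebendazole, without overlap.

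Read ratios inside a library do not depend on scaling. The ratio of SLC25A5 to SLC25A6 was 0.483, 0.478 and 0.445 in DMSO and 0.330, 0.338 and 0.330 with mebendazole (exact permutation p = 0.1, two-sided, the smallest that 3 against 3 allows). The ratio of SLC25A4 to SLC25A6 was 0.0136 ± 0.000713 in DMSO and 0.00412 ± 0.000560 with mebendazole, without overlap (exact permutation p = 0.1, n = 3). As a share of all reads of protein-coding SLC25A genes, SLC25A6 held 25.1% ± 0.812 in DMSO and 30.2% ± 1.18 with mebendazole. SLC25A6, SLC25A3 and SLC25A5 together held 53.0% ± 0.732 and 56.4% ± 1.37, and the 3 libraries of the groups did not overlap.

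Phosphate entered the comparison through SLC25A3, which imports phosphate for ATP synthesis, and through the calcium-regulated ATP-Mg/phosphate carriers SLC25A23, SLC25A24, SLC25A25 and SLC25A41. SLC25A3 was not called, with 407, 394 and 415 CPM in DMSO and 398, 383 and 400 with mebendazole (log2 fold change -0.04 ± 0.03, edgeR adjusted p = 0.228). It was called lower with library totals (-0.29) and among genes with a mean of 10 CPM or more (-0.08, edgeR adjusted p = 0.0295). Its groups overlapped, and it kept 16.2% of the reads of the family in both.

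The ATP-Mg/phosphate carriers moved in opposite directions. SLC25A23 had 28.5, 26.6 and 28.0 CPM in DMSO and 9.99, 9.51 and 11.2 with mebendazole, a fall of 1.44 ± 0.08 on the log2 scale (edgeR adjusted p = 1.5e-24). SLC25A24 had 70.9, 67.6 and 68.0 CPM in DMSO and 138, 123 and 134 with mebendazole, a rise of 0.93 ± 0.04 (edgeR adjusted p = 1.5e-29). SLC25A25 had 9.20, 7.93 and 7.88 CPM in DMSO and 18.1, 21.9 and 22.9 with mebendazole, a rise of 1.33 ± 0.10 (edgeR adjusted p = 7.8e-20).

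For these 3 genes every mebendazole library lay on one side of every DMSO library. Within libraries the ratio of SLC25A24 to SLC25A23 reads was 2.49 ± 0.0589 in DMSO and 12.9 ± 0.936 with mebendazole, 5.19-fold higher (exact permutation p = 0.1, n = 3). The ratio of SLC25A25 to SLC25A23 went from 0.301 ± 0.0209 to 2.06 ± 0.246, 6.84-fold higher, so SLC25A25 had fewer reads than SLC25A23 in DMSO and more with mebendazole. SLC25A41 was too low to test, with 31 reads in DMSO and 18 with mebendazole (ratio 0.684, exact 95% interval 0.360 to 1.26, counting error only). SLC25A25 exons overlap the annotated antisense gene SLC25A25-AS1 over 14.7% of their bases. SLC25A24 exons overlap the antisense gene AL359258.2 over 14.1% of theirs. The library kit does not mark strand, so reads of these overlaps cannot be told apart.

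**Figure D3:**
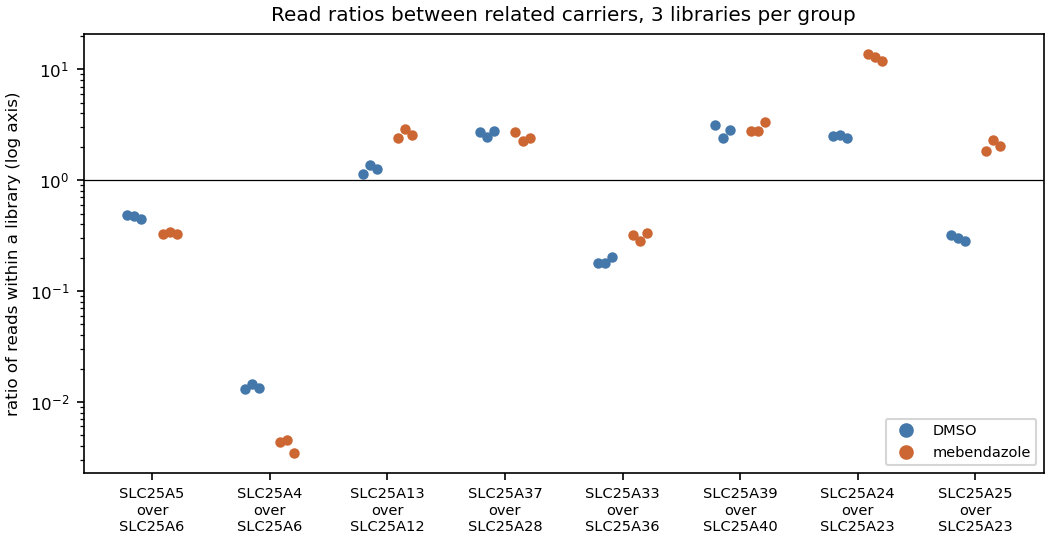
Ratio of reads between related SLC25A genes within each library (log axis), 3 DMSO and 3 mebendazole libraries per ratio. SLC25A24 over SLC25A23 went from 2.49 to 12.9 on average and SLC25A25 over SLC25A23 from 0.301 to 2.06, while SLC25A37 over SLC25A28 and SLC25A39 over SLC25A40 overlapped.

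The carriers of citrate, dicarboxylates and oxoglutarate fell, all 3 of the 3 tested, beside 41.7% of all genes called lower, with a median log2 fold change of -0.87. SLC25A10, which exchanges malate or succinate for phosphate, had the largest fall of the family. It had 28.0, 28.2 and 29.3 CPM in DMSO and 7.23, 6.90 and 6.77 with mebendazole, so its highest mebendazole library was far below its lowest DMSO library. Its log2 fold change was -2.03 ± 0.09 (edgeR adjusted p = 1.3e-30), 4.09-fold lower. Another gene model on the same strand shares 56.3% of its 50-base stretches, and the neighbouring gene MRPL12, which fell by 1.74 on the log2 scale, was counted apart.

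SLC25A1 exports citrate to the cytosol, where it feeds fatty acid synthesis. It had 99.8, 96.7 and 99.8 CPM in DMSO and 53.5, 54.5 and 53.8 with mebendazole, a tight fall of 0.87 ± 0.05 on the log2 scale (edgeR adjusted p = 4.0e-26). SLC25A11, the oxoglutarate and malate exchanger of the malate-aspartate shuttle, went from 44.0 ± 3.36 to 29.6 ± 2.05 CPM (n = 3). SLC25A11 shares 12.9% of its exon bases with RNF167 on the other strand, and RNF167 was also lower, by -0.53. SLC25A21, the oxodicarboxylate carrier, had no read.

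Among amino acid carriers 3 of the 8 tested were called higher, 3 lower and 2 neither, beside 40.6% and 41.7% of all genes called higher and lower. With library totals 1 was called higher and 5 lower, beside 30.8% and 53.9%. SLC25A22, a glutamate importer, had 44.0, 36.1 and 40.4 CPM in DMSO and 12.0, 13 and 10.1 with mebendazole. The groups were far apart, with a fall of 1.78 ± 0.08 on the log2 scale (edgeR adjusted p = 7.7e-31). SLC25A22 exons overlap PANO1 on the other strand over 15.2% of their bases, and PANO1 had no entry in the count table. SLC25A18, the other glutamate carrier, was scarce, with 0.920, 1.02 and 0.647 CPM in DMSO and 1.35, 1.46 and 1.65 with mebendazole, called higher at 0.79 ± 0.31 (edgeR adjusted p = 0.0170). That call was lost without replicate 3 (0.53), with DESeq2 and with library totals.

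SLC25A12 and SLC25A13 both export aspartate in exchange for glutamate in the malate-aspartate shuttle, and only SLC25A12 was called. SLC25A12 had 23.7, 20.8 and 21.9 CPM in DMSO and 10.7, 9.44 and 10.2 with mebendazole, a log2 fold change of -1.13 ± 0.09 (edgeR adjusted p = 1.5e-18). SLC25A13 had 26.8, 28.6 and 27.6 CPM in DMSO and 25.7, 27.6 and 26.2 with mebendazole, at -0.06 ± 0.07 (edgeR adjusted p = 0.397), but it was called lower with library totals (-0.31). The ratio of SLC25A13 to SLC25A12 reads was 1.13, 1.37 and 1.26 in DMSO and 2.40, 2.93 and 2.56 with mebendazole, 2.09-fold higher without overlap (exact permutation p = 0.1).

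SLC25A44, which imports branched-chain amino acids, had 76.7, 77.5 and 73.5 CPM in DMSO and 103, 110 and 115 with mebendazole, a rise of 0.53 ± 0.05 (edgeR adjusted p = 9.0e-17). SLC25A29, a carrier of basic amino acids, went from 10.5 ± 0.518 to 12.7 ± 0.708 CPM, and SLC25A15, the ornithine carrier of the urea cycle, from 33.8 ± 0.663 to 20.9 ± 1.19 CPM (n = 3). The call of SLC25A29 was lost with library totals and with DESeq2. SLC25A38, which imports glycine for haem synthesis, was not called. It had 31.1, 31.7 and 35 CPM in DMSO and 32.2, 30.5 and 33.2 with mebendazole, overlapping values (edgeR adjusted p = 0.695), although library totals called it lower at -0.27. SLC25A2, the second ornithine carrier, had 2 reads in DMSO and 0 with mebendazole.

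**Figure D4:**
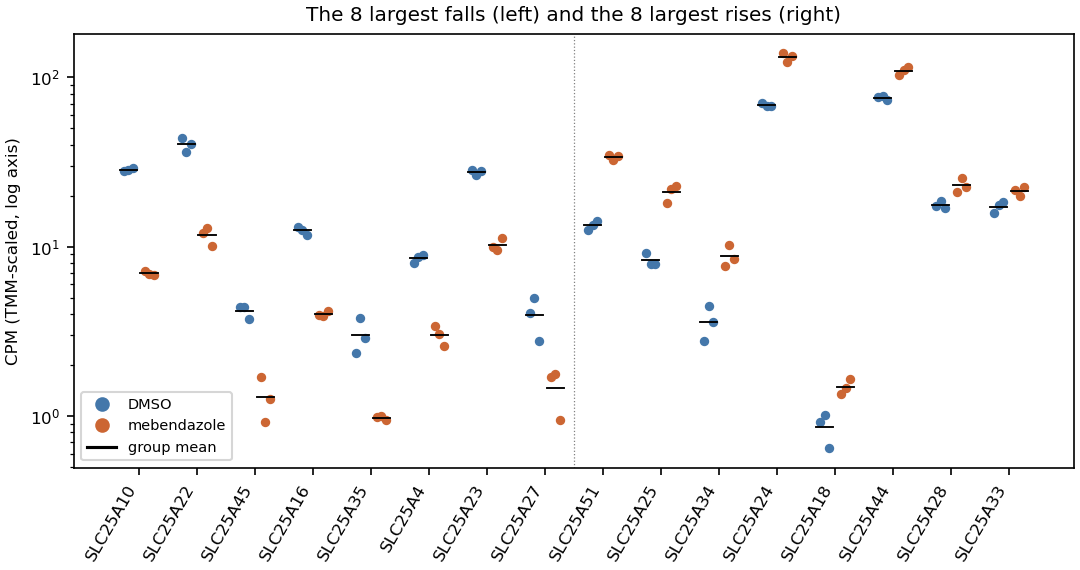
CPM (TMM-scaled, log axis) in each of the 6 libraries for the 8 SLC25A genes with the largest falls and the 8 with the largest rises, among called genes with a mean of 1 CPM or more. Lines are group means. In all 16 the groups do not overlap, from SLC25A10 (28.5 to 6.97 CPM on average) to SLC25A33 (17.2 to 21.3). These genes were picked by their change, and the groups did not overlap for 82.4% of all genes tested.

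SLC25A20 brings acylcarnitines into mitochondria for fatty acid oxidation. It went from 39.0 ± 0.743 CPM in DMSO to 25.6 ± 2.28 with mebendazole (n = 3), a fall of 0.61 ± 0.07 on the log2 scale (edgeR adjusted p = 6.0e-13).

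Of the carriers of cofactors and nucleotides, 3 of the 9 tested were called higher and 6 lower, beside 40.6% and 41.7% of all genes, and with library totals 1 higher and 6 lower, beside 30.8% and 53.9%. SLC25A51, the NAD+ importer whose run shared with SLC25A52 is printed above, had 12.6, 13.4 and 14.2 CPM in DMSO and 34.9, 32.6 and 34.3 with mebendazole. Its groups were well separated, with the largest rise of the family at 1.34 ± 0.08 on the log2 scale (edgeR adjusted p = 1.5e-25). SLC25A52 had 0 reads in DMSO and 4 with mebendazole, and the sum of both genes went from 13.4 ± 0.807 to 34.0 ± 1.11 CPM.

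SLC25A16, linked to coenzyme A, had 13, 12.6 and 11.8 CPM in DMSO and 3.97, 3.91 and 4.17 with mebendazole. These groups did not overlap, with a log2 fold change of -1.63 ± 0.13 (edgeR adjusted p = 6.7e-19). SLC25A42, the coenzyme A carrier, was less even. It had 7.10, 4.75 and 6.29 CPM in DMSO and 3.54, 4.99 and 5.19 with mebendazole, was slightly higher with mebendazole in pair 2, and lost its call (edgeR adjusted p = 0.0127) with DESeq2 and without replicate 1, where the change was -0.12. SLC25A26, the S-adenosylmethionine carrier, went from 13.9 ± 1.40 to 7.32 ± 0.685 CPM, and SLC25A17, a peroxisomal carrier of cofactors, from 19.4 ± 1.54 to 15.2 ± 0.203 CPM. SLC25A26 exons overlap LRIG1 on the other strand over 4.54% of their bases, and LRIG1 was higher by 0.57.

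SLC25A33 and SLC25A36 import pyrimidine nucleotides and moved apart. SLC25A33 had 15.7, 17.6 and 18.3 CPM in DMSO and 21.5, 20.0 and 22.3 with mebendazole, at 0.31 ± 0.08 (edgeR adjusted p = 3.7e-04). SLC25A36 had 88.2, 97.4 and 90.8 CPM in DMSO and 67.2, 71.3 and 66.9 with mebendazole, at -0.43 ± 0.05 (edgeR adjusted p = 5.6e-13). The rise of SLC25A33 was not called with library totals, but the ratio of its reads to those of SLC25A36, which no scaling moves, went from 0.187 ± 0.0132 to 0.311 ± 0.0274 without overlap (exact permutation p = 0.1, n = 3). Of the 50-base stretches of SLC25A33, 20.7% also occur in other genes.

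SLC25A32, which carries folate or FAD, went from 55.1 ± 1.84 to 48.8 ± 2.46 CPM, a call lost with DESeq2. Another gene model on the same strand shares 88.1% of its exon bases, and 87.9% of its 50-base stretches also occur in other genes. Its exons also overlap those of DCAF13 on the other strand over 11.1% of their bases, and DCAF13 was lower by -1.23.

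Of the 4 iron and glutathione carriers tested, 2 were called higher and 2 lower, beside 40.6% and 41.7% of all genes. Those called higher were the iron importers and those called lower the glutathione importers. With library totals 0 were called higher and 2 lower, beside 30.8% and 53.9%. SLC25A37 and SLC25A28, the mitoferrins, supply iron for haem and iron-sulphur clusters. SLC25A37 had 46.8, 46.0 and 46.7 CPM in DMSO and 57.2, 57.5 and 54.4 with mebendazole, at 0.28 ± 0.05 (edgeR adjusted p = 3.9e-06). SLC25A28 had 17.4, 18.7 and 16.9 CPM in DMSO and 21.1, 25.5 and 22.6 with mebendazole, at 0.38 ± 0.08 (edgeR adjusted p = 8.7e-06). In both genes every mebendazole library was the higher, yet neither rise was called with library totals. The ratio of SLC25A37 to SLC25A28 reads overlapped between groups (exact permutation p = 0.3, n = 3).

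SLC25A39 and SLC25A40 import glutathione. SLC25A39 had 120, 99.8 and 110 CPM in DMSO and 80.0, 83.8 and 80.3 with mebendazole, at -0.43 ± 0.05 (edgeR adjusted p = 6.8e-13). SLC25A40 had 38.2, 41.8 and 39.0 CPM in DMSO and 28.7, 30 and 23.8 with mebendazole, at -0.53 ± 0.06 (edgeR adjusted p = 3.7e-11). Both were lower in every mebendazole library. Their ratio was 2.78 ± 0.385 in DMSO and 2.98 ± 0.334 with mebendazole, with overlap (exact permutation p = 0.6, n = 3).

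Of the 3 carriers that resemble uncoupling proteins, SLC25A27 fell and the other 2 were not called. SLC25A27 had 4.07, 4.95 and 2.76 CPM in DMSO and 1.70, 1.76 and 0.944 with mebendazole, with the lowest value of both groups in pair 3 (-1.41 ± 0.21, edgeR adjusted p = 1.7e-08). SLC25A30 had 20.9, 21.7 and 20.8 CPM in DMSO and 21.5, 19.3 and 22.8 with mebendazole, overlapping values (edgeR adjusted p = 0.943), but library totals called it lower (-0.24). SLC25A14 went from 5.80 ± 0.225 to 6.98 ± 0.0303 CPM and missed the threshold (edgeR adjusted p = 0.0566) although its groups did not overlap, and it was called higher with RLE scaling (0.29, edgeR adjusted p = 0.039).

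Carriers with no settled substrate, with the outer membrane protein SLC25A46 among them, were called lower in 4 of 5 tested, beside 41.7% of all genes, and the call of SLC25A46 was lost under several alternatives given below. SLC25A34 was the exception, with 2.76, 4.47 and 3.59 CPM in DMSO and 7.72, 10.3 and 8.42 with mebendazole (1.29 ± 0.14, edgeR adjusted p = 5.8e-13). SLC25A35 had 2.37, 3.8 and 2.88 CPM in DMSO and 0.992, 0.997 and 0.944 with mebendazole (-1.61 ± 0.25, edgeR adjusted p = 4.8e-08). For both, the mebendazole libraries lay outside the range of DMSO. SLC25A35 exons overlap RANGRF on the other strand over 26.6% of their bases, and RANGRF, at 0.19, was not called.

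SLC25A45 had 4.40, 4.41 and 3.76 CPM in DMSO and 1.70, 0.920 and 1.26 with mebendazole, a separated fall (-1.68 ± 0.22, edgeR adjusted p = 2.7e-10). SLC25A43 went from 24.7 ± 1.67 to 17.5 ± 0.227 CPM. SLC25A46, which takes part in mitochondrial shape, went from 55.9 ± 2.25 to 51.7 ± 1.84 CPM, the smallest called change at -0.11 (edgeR adjusted p = 0.0456), and the call was lost without the pair term (0.0528), with DESeq2 or RLE scaling, and without replicate 1 or 2.

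The members that could not be tested were near the floor. SLC25A53 had 15 reads in DMSO and 7 with mebendazole (ratio 0.550, exact 95% interval 0.190 to 1.43), SLC25A47 had 0 and 2, and SLC25A48 had 1 and 2. Of the 10 untested members, 4 had no read, namely SLC25A21, SLC25A31 and the pseudogenes SLC25A3P1 and SLC25A51P1. The antisense RNA SLC25A5-AS1 was tested and went from 2.01 ± 0.307 to 1.07 ± 0.384 CPM (-0.92 ± 0.28, edgeR adjusted p = 0.00213), a call lost with DESeq2.

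Sequence upstream of the members was searched for 4 short motifs on both strands, in the 250 bases before each RefSeq start (GRCh38.p14), which covered 50 windows of 40 member genes, some of 1 gene overlapping each other. The cAMP response element TGACGTCA lay in 3 windows, or 6.00%, against 1.65% of 34961 windows of all genes. The E-box CACGTG lay in 8 windows, or 16%, against 6.35%, the ETS motif CCGGAAG in 11, or 22%, against 8.52%, and the AP-1 motif TGACTCA in 2, or 4%, against 4.17%. None of these motifs contains another. GC content ran from 37.6% to 82% in the member windows, and all windows were not matched to it, so its part in these shares was not tested. The 3 matches to TGACGTCA and the CACGTG match of the most raised member are shown, with the motif in capitals, at chr9:128098296-128098325 (plus strand), chr1:9539405-9539434 (plus), chr3:140941708-140941737 (plus) and chr9:37904169-37904198 (minus).
SLC25A25: ggagggagcggTGACGTCAgccctgatctt
SLC25A33: tcgcgcgcccgTGACGTCAcggtccggccc
SLC25A36: tgcagagtgcgTGACGTCAcgacgctcaca
SLC25A51: cggtgtctccctCACGTGaccccaacagcg
SLC25A25 and SLC25A33 rose and SLC25A36 fell, so genes with the same letters moved in both directions. The match in SLC25A25 begins 200 bases before 1 of its 3 annotated starts, and counts per gene do not show which start was used. Among member genes with a window, CACGTG lay in 2 of the 10 called higher and 3 of the 20 called lower. These matches are letters in a window and not measured binding.

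Relatives of the family that carry other names were called in all 4 tested, beside 82.3% of all genes, 2 of them higher and 2 lower. UCP2, an uncoupling protein abundant in myeloid cells, had 126, 118 and 120 CPM in DMSO and 33, 36.4 and 32.2 with mebendazole (-1.84 ± 0.05, edgeR adjusted p = 3.8e-42). MTCH1, an outer membrane relative, had 220, 218 and 225 CPM in DMSO and 545, 526 and 550 with mebendazole (1.29 ± 0.03, edgeR adjusted p = 2.1e-44). Both sets of libraries were wholly separate. MTCH2, an insertase of the outer membrane, was lower at -0.68, and UCP3 higher at 0.89 from 2.84 CPM.

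Of 18 tested genes of the import route that inserts carriers, 4 were called higher and 12 lower, beside 40.6% and 41.7% of all genes. Their median was -0.65, beside -0.03 over all genes. With library totals 1 was called higher and 15 lower, beside 30.8% and 53.9% of all genes, and the median was -0.89 beside -0.27. TOMM5, a small subunit of the entry pore, went from 158 ± 5.70 to 68.7 ± 3.38 CPM (-1.20), and TOMM34, a cytosolic cochaperone of import, from 57.1 ± 1.73 to 110 ± 1.57 CPM (0.95). Of the small chaperones that guide carriers across the intermembrane space, TIMM9 and TIMM10 were lower at -0.86 and -0.94. TIMM10B went the other way and was called higher at 0.22 (edgeR adjusted p = 1.2e-04). TIMM22, the channel of the insertion complex, was not called at 0.03.

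Other mitochondrial transporters were called higher in 6 and lower in 11 of 20 tested, beside 40.6% and 41.7% of all genes, with a median of -0.19. With library totals 6 were called higher and 14 lower, beside 30.8% and 53.9%, with a median of -0.44. MPC1 and MPC2 together form the pyruvate carrier, and they moved apart, MPC1 from 52.9 ± 3.73 to 35.7 ± 0.757 CPM (-0.57) and MPC2 from 30.6 ± 0.682 to 64.8 ± 1.62 CPM (1.08). VDAC3, a pore of the outer membrane, went from 194 ± 5.10 to 95.9 ± 1.32 CPM (-1.02).

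Enzymes that use the carried substrates were called higher in 6 and lower in 22 of 30 tested, beside 40.6% and 41.7% of all genes, with a median of -0.57. With library totals 3 were called higher and 24 lower, beside 30.8% and 53.9%, with a median of -0.82. ME1, the cytosolic malic enzyme, went from 49.8 ± 2.13 to 214 ± 6.37 CPM (2.10). ACLY, which cleaves the citrate exported by SLC25A1, was lower at -0.62.

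**Figure D5:**
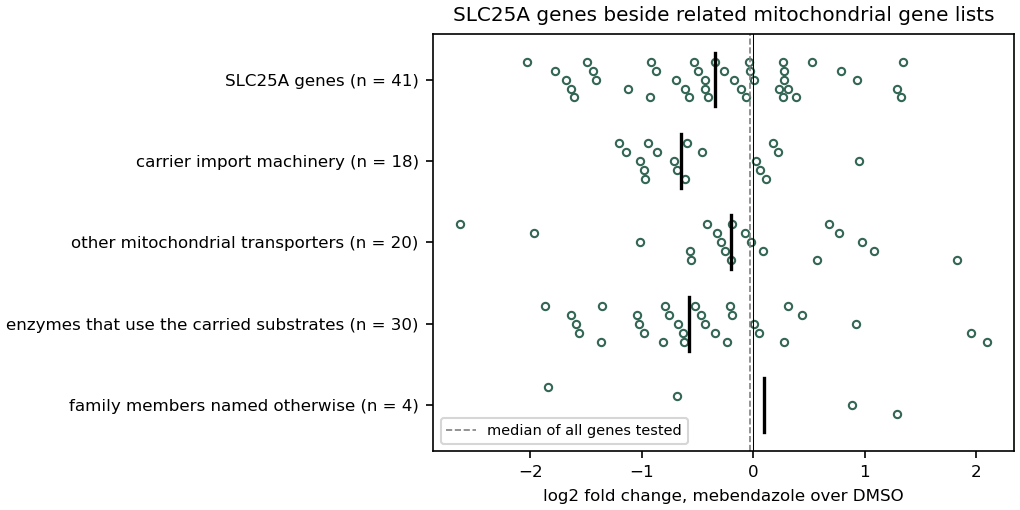
Log2 fold change (horizontal axis) of the 41 tested SLC25A genes and of 4 related gene lists, 1 circle per gene. Black bars are medians and the dashed line is the median of all genes tested, -0.03. The median of the SLC25A genes is -0.35, between -0.19 for other mitochondrial transporters and -0.57 for the enzymes.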

How the data were processed

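The authors deposited raw read counts per gene symbol for 6 libraries (TruSeq RNA v2, a kit that does not mark strand, per the labels' protocols). STAR, bedtools, HTSeq, DESeq2 and hg19 are named, without roles, per the submitters' processing notes. Neither strand setting nor annotation is given in the sources used here, and 0 columns belonged to no sample.

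Counts were fitted in R 4.3.3 with edgeR 4.0.16 (filterByExpr, TMM, glmQLFit, glmQLFTest, two-sided) with pair and agent as terms, over all 13591 genes that passed, with calls at an adjusted p (Benjamini-Hochberg) under 0.05. The pair is a term because the labels state it. Alternatives were library totals, RLE, DESeq2 1.42.0, limma-voom (limma 3.58.1), other count filters, no pair term, each pair left out and a test against 1.5-fold. The code was tested on simulated data in which far fewer genes changed than were called here, so that test did not check the scaling. GENCODE transcripts and RefSeq upstream windows (both GRCh38) gave lengths and sequence, not counts, and no hg19 coordinate was used.

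Members and lists were chosen with earlier results of these data known. Values per library are given for the 8 largest rises and falls among called members with a mean of 1 CPM or more, the 5 highest per exon length in DMSO, uncalled members at 10 CPM or more, and closest paralogs. Of other lists, the largest called rise and fall at 10 CPM or more are named. SLC25A42, UCP3, MTCH2, TIMM9, TIMM10, TIMM10B, TIMM22, MPC1 and ACLY were named after their values were seen. Some items that the rule names are not reported here.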

Additional observations from a re-analysis of the deposited data

How the results depend on the processing

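Scaling by library totals called 5 members higher, a 1.5-fold test called 4 higher and 12 lower, and a mean of 10 CPM or more left 6 at 2-fold. The median log2 fold change, -0.35, was -0.59 with library totals, -0.33 with RLE, -0.32 with DESeq2, -0.36 without the filter and -0.21 at 10 CPM or more, and -0.36 to -0.29 with 1 pair left out. The summed ADP/ATP carrier level reversed from 0.08 to -0.16 with library totals, as did SLC25A6 (-0.0158). SLC25A30, at 0.01, was -0.24 with library totals, -0.0102 without the filter, -0.0278 at 10 CPM or more and -0.0634 to 0.1049 with 1 pair left out. SLC25A38 ran from -0.0648 to 0.0009 with 1 pair left out. The cause was not tested. Under limma-voom 41 of 41 members kept direction and call. Across all settings but the 1.5-fold test, 25 of 36 called members did in each setting that tested them. The filter at a mean of 10 CPM or more tested 31 members, so called members below that level were not checked there.

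Without the replicate block 12 members were called higher, 23 lower and 12 at 2-fold, with a median of -0.35, and SLC25A46 lost its call. The deviations of paired libraries from their group means correlated at -0.001, 0.06 and 0.02, and 3 of 6 libraries correlated best with their own number, so the pairing rests on the labels.

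Exact tests with 3 libraries per group could not go below 0.1.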
